A study of Mus musculus with 4 samples.

Results

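The small nucleolar RNA (snoRNA) host genes Gas5, Snhg1, Snhg3, Snhg5, Snhg6, Snhg8, Snhg12 and Snhg15 were followed in mouse Hoxb8 cells. They are 8 of the 52636 gene lines in the count table, were taken by name, and were all among the 11444 genes with enough counts to be tested. RNA came from cells carrying an empty vector (EV, n = 2 libraries) or expressing the DNMT3A variant R882H (R882H, n = 2), and both groups share the Hoxb8 cell line as background. Lines made with this homeobox gene are used as models of myeloid progenitors, and R882H is a recurrent substitution of the DNA methyltransferase DNMT3A in acute myeloid leukaemia. The labels do not say whether the lines are clones, whether the replicates are separate cultures, or which promoter drives the variant, and the p-values therefore cover no more than the spread among these libraries.

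Host genes of this class make a spliced, polyadenylated noncoding RNA whose introns hold snoRNAs. The snoRNAs are freed when the introns are debranched and trimmed, and in the nucleolus they guide ribose methylation (box C/D class) or pseudouridylation (box H/ACA class) of ribosomal RNA. The spliced exons have no long reading frame. In mammalian cells many of these RNAs start with a terminal oligopyrimidine (TOP) sequence, as ribosomal protein messages do, and are removed by nonsense-mediated decay while they are translated. Gas5, whose name stands for growth arrest-specific, is known to accumulate when growth slows or translation is blocked. The measurement here is of the polyadenylated host RNA, read as tags near its 3′ end, and not of the mature snoRNAs.

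The 4 promoter stretches below are shown because they belong to the 3 genes with the largest fitted rise and to Snhg12, which had the smallest change. Each runs from 50 bases before to 50 bases after a RefSeq start (GRCm38.p6, 5′ to 3′), and capitals mark a C followed by at least 4 C or T within 5 bases of the start, or TATAAA read on the strand shown.
Gas5 (chr1:161035116-161035215, plus strand): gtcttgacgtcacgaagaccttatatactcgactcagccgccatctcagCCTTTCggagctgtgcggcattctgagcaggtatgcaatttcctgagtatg
Snhg8 (chr3:123508287-123508386, minus strand): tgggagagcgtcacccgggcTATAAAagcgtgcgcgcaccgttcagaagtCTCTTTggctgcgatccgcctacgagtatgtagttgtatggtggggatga
Snhg5 (chr9:88522848-88522947, minus strand): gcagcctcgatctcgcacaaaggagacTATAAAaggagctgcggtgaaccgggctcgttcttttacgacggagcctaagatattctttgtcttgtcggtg
Snhg12 (chr4:132308628-132308727, plus strand): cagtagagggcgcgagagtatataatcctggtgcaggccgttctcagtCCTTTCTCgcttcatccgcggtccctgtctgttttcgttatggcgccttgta

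Such a C-led pyrimidine run lay at the start of Gas5, Snhg8 and Snhg12 and, 3 bases into the transcript, of Snhg3. RefSeq windows of 300 bases were matched for 7 of the 8 genes, with 8 windows in all because Gas5 has 2 starts, and 4 of these 8 held the run against 18.3% of 32851 windows over all genes. The upstream Gas5 start did not have it. The letters TATAAA, searched on both strands, were in 4 of the 8 windows (Snhg1, Snhg3, Snhg5 and Snhg8) against 13.6% of all, and GGGCGG in 6 of 8 against 35.7%. CCGGAA was in 2 of 8 (Snhg3 and Snhg5) against 14.9%, and in Snhg3 it overlaps the pyrimidine run. CACGTG, which reads alike on both strands, was in 1 of 8 (Snhg15) against 7.15%. Of the genes with the pyrimidine run, Gas5 and Snhg8 were called higher and Snhg12 and Snhg3 were not called, as given below. Any link of the run to these values was not tested. These matches describe letters in a window and do not show binding.

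The snoRNAs below stand for 6 of the hosts. They come from the GENCODE M21 transcripts (GRCm38), and capitals mark box C (TGATGA) and box D (CTGA) in the Snord sequences and the ACA that ends 3 bases before the end in the Snora sequences.
Snord47 in Gas5 (chr1:161038082-161038158, plus strand): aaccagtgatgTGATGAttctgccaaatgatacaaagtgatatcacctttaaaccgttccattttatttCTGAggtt
Snord50a in Snhg5 (chr9:88521529-88521600, minus strand): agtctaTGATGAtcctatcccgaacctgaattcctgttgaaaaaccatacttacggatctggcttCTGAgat
Snord50b in Snhg5 (chr9:88521797-88521868, minus strand): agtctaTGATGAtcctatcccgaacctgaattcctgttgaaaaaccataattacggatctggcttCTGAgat
Snord87 in Snhg6 (chr1:9942463-9942549, minus strand): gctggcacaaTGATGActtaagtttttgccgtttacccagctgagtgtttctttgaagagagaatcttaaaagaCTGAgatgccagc
Snord99 in Snhg12 (chr4:132310691-132310764, plus strand): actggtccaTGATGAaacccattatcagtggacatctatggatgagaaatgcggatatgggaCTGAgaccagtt
Snora24 in Snhg8 (chr3:123507937-123508066, minus strand): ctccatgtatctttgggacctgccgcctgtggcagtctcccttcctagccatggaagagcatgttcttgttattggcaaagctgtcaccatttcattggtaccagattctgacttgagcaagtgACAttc
Snora9 in Snhg15 (chr11:6528033-6528165, minus strand): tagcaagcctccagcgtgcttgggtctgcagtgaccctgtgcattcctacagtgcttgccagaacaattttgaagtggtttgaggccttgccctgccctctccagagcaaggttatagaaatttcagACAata

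Snord50a and Snord50b, the pair within Snhg5, are 72 bases long and differ at 1 position. Snora73a and Snora73b within Snhg3, forms of the U17 snoRNA that acts in ribosomal RNA processing, are 205 bases long and differ at 7. The annotation puts 30 snoRNA lines inside the 8 hosts on the same strand, with 10 in Gas5, 8 in Snhg1, 5 in Snhg12, 2 each in Snhg3 and Snhg5, and 1 each in Snhg6, Snhg8 and Snhg15. Snord80 in Gas5 and Snora16a in Snhg12 each take up 2 overlapping lines. The counts of lines here therefore exceed the number of distinct snoRNAs. Of the 30, 17 had both box C and box D letters, 7 had the ACA, and 6 had neither by these exact letters. Gas5 and Snhg1 held the C/D class among the lines with matched letters, Snhg8 and Snhg15 the H/ACA class, and Snhg12 both.

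**Figure D1:**
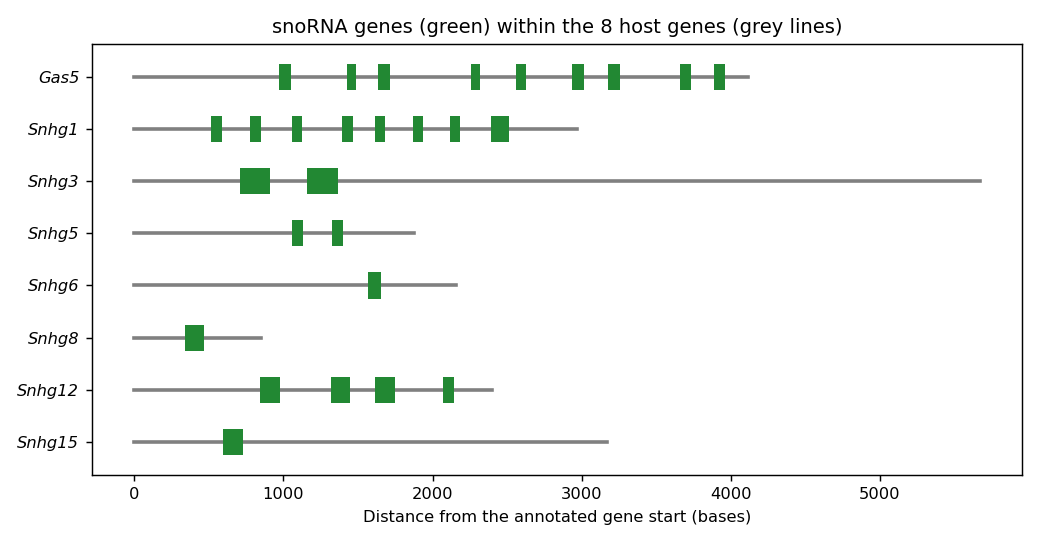
Position of each annotated snoRNA gene (green blocks) along each host gene (grey line), in bases from the annotated gene start, drawn in the direction of transcription. Gas5 holds 10 snoRNA lines and Snhg1 holds 8, of which some Gas5 and Snhg12 lines overlap each other, while Snhg6, Snhg8 and Snhg15 hold 1 each.

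Gas5 was the most abundant of the 8. Levels are given as CPM, counts scaled to a common library total, with library sizes adjusted by the trimmed mean of M-values (TMM), and as mean ± SD with n = 2 per group, and need no length correction because each transcript gives 3′ tags. In EV cells Gas5 had 759.9 ± 75.7 CPM, followed by Snhg1 with 261 ± 50.4 and Snhg8 with 245 ± 49.5 CPM, which overlapped each other. Snhg3 (199.7 ± 39.0 CPM) and Snhg6 (164 ± 21.3 CPM) also overlapped, with Snhg5 (95.04 ± 4.60 CPM), Snhg12 (67.3 ± 1.82 CPM) and Snhg15 (60.3 ± 1.88 CPM) below them. In R882H cells the order was Gas5, Snhg8, Snhg1, Snhg3, Snhg6, Snhg5, and then Snhg15 and Snhg12, whose libraries overlapped. By mean level over the 4 libraries Gas5 ranked 98 among the 11444 tested genes and Snhg15, the lowest of the set, 3090.

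In R882H cells 4 of the 8 host genes rose, Gas5, Snhg8, Snhg5 and Snhg6, and none fell. Tests are edgeR quasi-likelihood tests over all tested genes with Benjamini-Hochberg adjustment, and a gene is said to rise or fall only at an adjusted p under 0.05. By this rule 38.8% of all tested genes were called, 19.3% as higher and 19.4% as lower, so the 4 of 8 stand beside a large background. At an unadjusted p under 0.05, 5 of the 8 and 23.6% of all tested genes were higher. The median log2 fold change (R882H over EV) of the 8 was 0.38, against 0.01 over all tested genes. Both R882H libraries lay above both EV libraries for 7 of the 8, as they did for 35.2% of all tested genes. DESeq2 also called 4 of the 8 higher, beside 10.0% of the genes it tested as higher and 10.9% as lower. So did edgeR with relative log expression scaling (18.8% of genes higher and 19.8% lower), library size only (18.2% and 20.1%), no low-count filter (12.4% and 12.0%), a minimum of 10 counts throughout one group (19.5% and 19.6%), no robust estimation (18.9% and 19.1%) and a replicate block (19.2% and 19.5%).

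Gas5 (ENSMUSG00000053332, GRCm38 chromosome 1, 161034422 to 161038539, plus strand) had 4436 and 4002 counts in EV cells and 9805 and 9780 in R882H cells, or 813, 706, 1641 and 1717 CPM. Both R882H libraries were far above both EV libraries. The mean went from 759.9 ± 75.7 to 1679 ± 53.9 CPM, a log2 fold change of 1.14 ± 0.14 (SE, edgeR adjusted p = 6.89e-08). This is a 2.21-fold rise with a 95% interval of 1.80 to 2.70, and with any 1 library left out the log2 fold change was between 1.04 and 1.24 and still called. Among the 2213 genes called higher it ranked 752 by fold.

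Snhg8 (ENSMUSG00000104960, chromosome 3, 123507552 to 123508404, minus strand), the host of Snora24, had 280.2 and 210.2 CPM in EV and 381 and 381 CPM in R882H, from 1528, 1191, 2278 and 2168 counts. The R882H libraries were nearly alike, and the EV libraries stood apart from each other but below them. The log2 fold change was 0.64 ± 0.14 (edgeR adjusted p = 0.000435), a 1.55-fold rise with a 95% interval of 1.28 to 1.89. It was called with each library left out, at 0.44 without EV replicate 2 and 0.85 without EV replicate 1.

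Snhg5 (ENSMUSG00000097195, chromosome 9, 88521050 to 88522929, minus strand), the host of Snord50a and Snord50b and known in human as a fusion partner of BCL6 in lymphoma, had 98.3 and 91.8 CPM in EV and 120.5 and 137 CPM in R882H. The lower R882H library was above the higher EV library. It rose 1.36-fold, with a 95% interval of 1.13 to 1.63 (log2 fold change 0.44 ± 0.13, edgeR adjusted p = 0.00816). The call ended without R882H replicate 2 (log2 fold change 0.36, edgeR adjusted p = 0.163). Snhg5 is the single gene of the 8 whose exons overlap no other gene with at least 10 counts. For Gas5, Snhg1, Snhg8, Snhg12 and Snhg15 the overlapping genes are only lines of their own snoRNAs, whereas Snhg3 and Snhg6 overlap other genes. In a fit of the 7931 genes without any such overlap Snhg5 was called higher, as were 19.6% of them, with 19.8% lower.

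Snhg6 (ENSMUSG00000098234, chromosome 1, 9941959 to 9944118, minus strand), the host of Snord87, had 179 and 149 CPM in EV and 226 and 216 CPM in R882H. The groups did not overlap. The log2 fold change was 0.43 ± 0.13 (edgeR adjusted p = 0.0104), or 1.35-fold with a 95% interval of 1.12 to 1.63. The call ended when EV replicate 2 (0.30, edgeR adjusted p = 0.0769), R882H replicate 1 (0.41, adjusted p = 0.111) or R882H replicate 2 (0.47, adjusted p = 0.0544) was left out. Its 3′ exon overlaps the last exon of Mcmdc2, a gene on the other strand with an MCM domain. Mcmdc2 had between 49.7% and 51.0% of the Snhg6 counts in all 4 libraries and was called higher as well (0.45 ± 0.13). That call ended without EV replicate 2 (0.33) or R882H replicate 1 (0.43). Reads in the overlap of the pair cannot be told apart. Mcmdc2 minus Snhg6 counts were −491 and −417 in EV and −664 and −604 in R882H. At least that many Snhg6 counts were therefore not also counted for Mcmdc2.

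**Figure D2:**
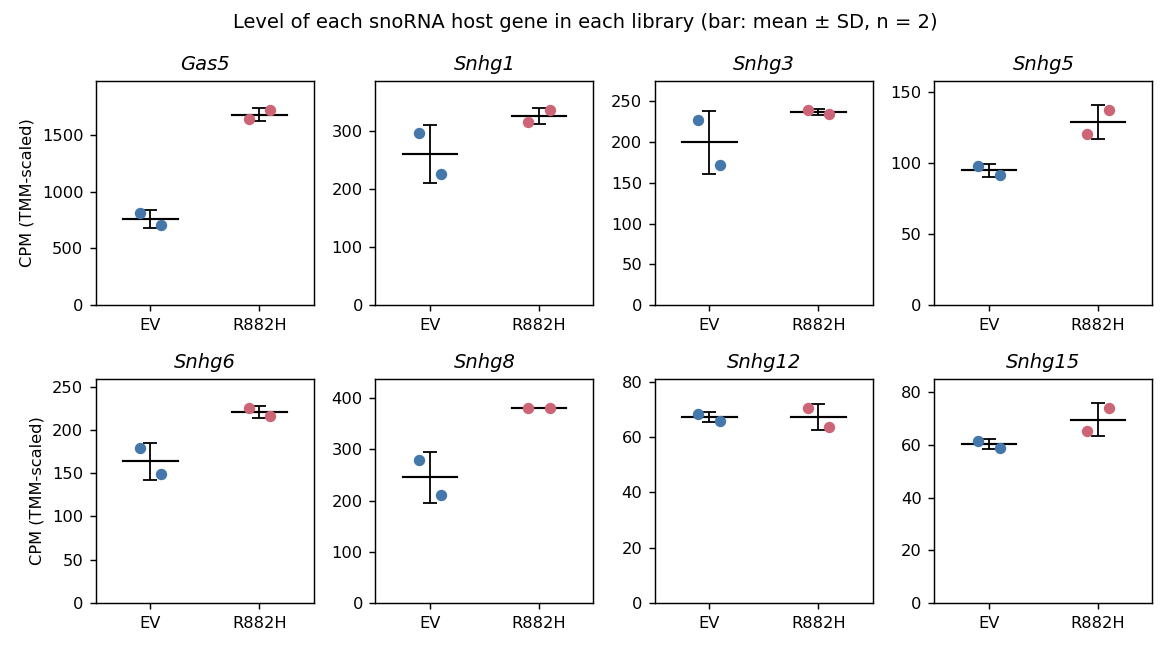
CPM (vertical axis, TMM-scaled, starting at 0 in each panel) of each host gene in the EV (blue) and R882H (red) libraries, each point 1 library, with the mean and SD of n = 2. Gas5 goes from 813 and 706 CPM in EV to 1641 and 1717 CPM in R882H, while the Snhg12 points of both groups lie between 63.9 and 70.6 CPM.

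Snhg1, Snhg3, Snhg15 and Snhg12 were not called. Snhg1 (ENSMUSG00000108414, chromosome 19, 8723475 to 8726443, plus strand), which holds Snord22, had 296 and 225 CPM in EV and 316 and 336 CPM in R882H. EV replicate 1 was close to the R882H libraries and EV replicate 2 well below them. The log2 fold change was 0.32 ± 0.14 (95% interval of the fold 1.03 to 1.52, edgeR adjusted p = 0.0646). Snhg3 (ENSMUSG00000085241, chromosome 4, 132348014 to 132353686, minus strand) had 227 and 172 CPM in EV and 239 and 234 CPM in R882H. Its EV libraries differed in the same way, and the log2 fold change was 0.24 ± 0.14 (fold interval 0.976 to 1.44, edgeR adjusted p = 0.161). Without EV replicate 1 both genes were called higher (Snhg1 0.53, edgeR adjusted p = 0.00316, and Snhg3 0.45, adjusted p = 0.00849). Without EV replicate 2 their log2 fold changes were 0.13 and 0.05.

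Snhg15 (ENSMUSG00000085156, chromosome 11, 6525591 to 6528760, minus strand), the host of Snora9, had 61.6 and 59.0 CPM in EV and 65.3 and 74.1 CPM in R882H. The R882H libraries were the higher ones, by a small margin for replicate 1. The log2 fold change was 0.21 ± 0.14 (fold interval 0.954 to 1.40, edgeR adjusted p = 0.230). Snhg12 (ENSMUSG00000086290, chromosome 4, 132308623 to 132311024, plus strand), which holds Snord99 and H/ACA snoRNAs, had 68.6 and 66.0 CPM in EV and 70.6 and 63.9 CPM in R882H. The groups overlapped and the mean was 67.3 CPM in each. The 95% interval of its fold was 0.827 to 1.21, with an upper end below the folds fitted for Gas5, Snhg8, Snhg5 and Snhg6. That interval overlaps those of Snhg5 (from 1.13) and Snhg6 (from 1.12), and differences between host genes were not tested.

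The EV libraries themselves differed for these genes. All 8 had a higher CPM in EV replicate 1 than in EV replicate 2, by a median of 0.24 on the log2 scale, whereas 47.1% of the 6318 genes with at least 100 counts in each library did (median −0.02). Accordingly 6 of the 8 were called higher without EV replicate 1 and 3 without EV replicate 2, beside 17.4% and 15.2% of all tested genes. Without R882H replicate 1 there were 3 (12.8% of all tested genes) and without R882H replicate 2 there were 2, Gas5 and Snhg8 (14.0% of all tested genes). The shares called lower over all genes in these 4 fits were 18.3%, 14.7%, 12.3% and 12.8%.

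**Figure D3:**
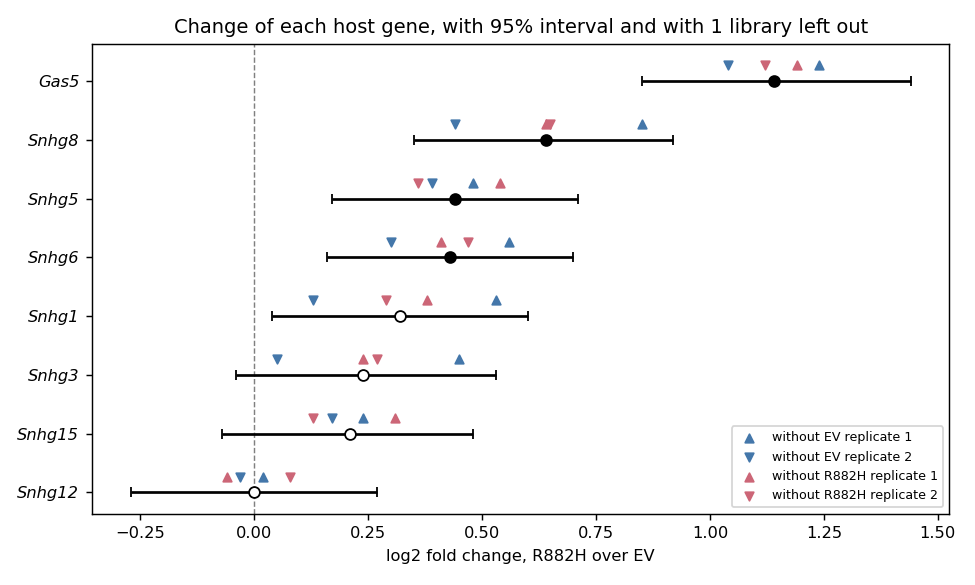
Log2 fold change (R882H over EV, horizontal axis) of each host gene with all 4 libraries (circles, filled where called) and its 95% interval from the edgeR fit, with the values after leaving out 1 library as triangles above it. Gas5 stays between 1.04 and 1.24, while Snhg1 ranges from 0.13 to 0.53 and Snhg3 from 0.05 to 0.45 depending on which EV library is left out.

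The 8 genes together took 0.202% and 0.170% of all counts in EV cells and 0.309% and 0.308% in R882H cells. Their summed level was 1852 ± 244 CPM in EV and 3109 ± 70.7 CPM in R882H, a ratio of 1.68, and with 2 libraries per group an exact two-sided permutation test of this sum cannot go below p = 0.33. Gas5 made up 40.2% and 42.1% of the 8 genes' counts in EV and 53.6% and 54.4% in R882H. Without Gas5 the sum of the other 7 was 1092 ± 169 CPM in EV and 1430 ± 16.9 CPM in R882H, a ratio of 1.31. In these bulk samples more (or fewer) cells that express a gene and more (or less) RNA per cell cannot be told apart.

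Of 10 genes within 5000 bases of a host, 2 rose, 1 fell and 7 were not called (median log2 fold change 0.22), beside 38.8% called and a median of 0.01 over all tested genes. Snhg1 and Slc3a2, the heavy chain of amino acid transporters at the cell surface, start 106 bases apart on opposite strands and share no exon. Slc3a2 had 302 and 365 CPM in EV and 220.0 and 244 CPM in R882H. It was lower in both R882H libraries and fell by 0.53 on the log2 scale (SE 0.14, edgeR adjusted p = 0.00227), although the call ended without R882H replicate 1 (−0.44, adjusted p = 0.106). Zbtb37, a zinc finger gene that starts 427 bases from the annotated Gas5 start on the other strand, had 27, 26, 25 and 22 counts and was not called (−0.24 ± 0.35). Beyond the 3′ end of Gas5, Gm37634 was not called (0.92 ± 0.46, from 9, 9, 19 and 17 counts). Trnau1ap, a selenocysteine tRNA-associated factor 739 bases past Snhg12, was not called (0.30 ± 0.16). Myo1g, a myosin of blood cells near Snhg15, rose by 0.39 ± 0.13 (edgeR adjusted p = 0.0198), a call that ended in DESeq2 (adjusted p = 0.0922) and when EV replicate 1 (0.27, adjusted p = 0.121), R882H replicate 1 (0.34, adjusted p = 0.199) or R882H replicate 2 (0.47, adjusted p = 0.0510) was left out. Phactr4 near Snhg3 was not called (−0.33 ± 0.17).

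**Figure D4:**
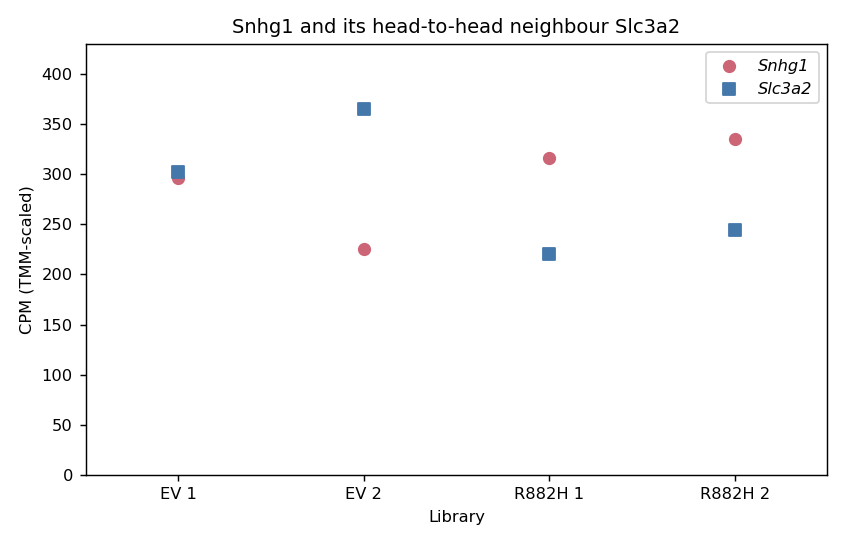
CPM (vertical axis, TMM-scaled) of Snhg1 (red circles) and of Slc3a2 (blue squares), which starts 106 bases away on the other strand, in each of the 4 libraries. Slc3a2 is at 302 and 365 CPM in EV and at 220.0 and 244 CPM in R882H, while Snhg1 is at 296 and 225 CPM in EV and at 316 and 336 CPM in R882H.

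Snhg3 shares its locus with Rcc1, the nucleotide exchange factor of Ran, and with the antisense gene Gm17300. Rcc1 starts 81 bases from Snhg3 on the same strand and was not called (−0.11 ± 0.13), with 1866, 1851, 1744 and 1861 counts. Gm17300 overlaps inner exons of Snhg3 on the other strand, among them the last exon of most annotated Snhg3 transcripts but not of the longest, and had 1323, 1003, 1466 and 1360 counts, against 1239, 975, 1429 and 1333 for Snhg3. The differences of 84, 28, 37 and 27 are close to the 86, 29, 39 and 32 counts of Snora73b, which lies between Snhg3 exons and within a Gm17300 exon. Reads of Snhg3 were therefore counted for both strands in this table, and which strand they came from cannot be told apart.

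The snoRNA lines themselves drew few reads, and most carry no poly(A) tail for this assay to prime on. Together the 30 lines had 736 counts against 56831 for the 8 hosts, or 1.30%, and 18 of them had at most 10 counts over the 4 libraries. Of the 30, 28 lie on an exon of some host transcript, and reads there can be counted for the host as well. In Gas5 the 10 lines summed to 69 and 74 counts in EV and 116 and 77 in R882H. Of the 30, Snora73b had the highest count in a library, 86 in EV replicate 1. No change of mature snoRNAs can be read from these values.

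Of 16 long noncoding genes listed as other snoRNA hosts, 14 were found in the table, 9 were tested, 4 rose and 1 fell. The median log2 fold change was 0.26, against 38.8% called and a median of 0.01 over all tested genes. Of these 9, 4 were also among the annotated snoRNA holders counted further below, with 1 higher and 1 lower. Zfas1, the host of Snord12 RNAs, had 252 and 226 CPM in EV and 362 and 375 CPM in R882H and rose by 0.62 ± 0.13 (edgeR adjusted p = 0.000278). Epb41l4aos had 57.8 and 48.0 CPM in EV and 99.6 and 96.9 CPM in R882H (0.89 ± 0.14). Mir17hg, which was listed and counted with them, holds the miR-17 microRNA cluster. It rose by 0.95 ± 0.15, and Snhg20 rose by 0.62 ± 0.16. Epb41l4aos was among the annotated snoRNA holders counted further below, and Mir17hg, Zfas1 and Snhg20 were not. For each of the 4 that rose the R882H libraries were above both EV libraries, as for 35.2% of all tested genes, which picking called genes favours. Snhg9 fell by 0.42 (SE 0.13), with 216 and 192 CPM in EV and 152 and 152 CPM in R882H. Its call ended without R882H replicate 1 (adjusted p = 0.125) and without R882H replicate 2 (adjusted p = 0.121), and its exons overlap those of Rps2. Snhg17 (0.26 ± 0.21), Dancr (0.18 ± 0.17), Snhg16 (0.07 ± 0.22) and Snhg10 (−0.17 ± 0.39) were not called. The sign of Snhg10 turned without EV replicate 1 (0.34) and that of Snhg16 without EV replicate 2 (−0.18).

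Of 37 protein-coding genes listed as carrying snoRNAs, many of them ribosomal protein genes, all were tested, 13 rose and 1 fell, with a median log2 fold change of 0.23. Over all tested genes 38.8% were called, 19.3% as higher and 19.4% as lower, with a median of 0.01. The share of this list called in either direction is near that background, while its calls lay mostly on the higher side. The number higher was 8 without R882H replicate 1 and 4 without R882H replicate 2. Rpl23 (0.82 ± 0.16), Rpl30 (0.72 ± 0.14), Rpsa (0.72 ± 0.15) and Rps20 (0.55 ± 0.15) rose, the last not without R882H replicate 2 (0.46, edgeR adjusted p = 0.113). Elongation factor Eef2 fell by 0.37 (SE 0.15, edgeR adjusted p = 0.0482) and lost its call when EV replicate 2 (−0.19, adjusted p = 0.233), R882H replicate 1 (adjusted p = 0.203) or R882H replicate 2 (adjusted p = 0.331) was left out, and with no low-count filter (0.0642), without robust estimation (0.0537) or with a replicate block (0.0936). A wider set took annotated genes outside the 8 that hold a snoRNA on the same strand and have an exon clear of it. Of these 312 genes, 302 were in the table, 212 were tested, 48 rose and 41 fell. Their median was −0.02, and these calls are near the 19.3% higher and 19.4% lower over all tested genes. This set takes in 40 tested genes of the noncoding and protein-coding lists above, with 14 of its higher and 2 of its lower calls. Without R882H replicate 1, 27 rose and 25 fell, and without R882H replicate 2, 27 and 26.

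Most genes for proteins that package snoRNAs were not called, beside 38.8% called over all tested genes. Among 8 core proteins of the C/D and H/ACA particles, 1 rose, 1 fell and 6 were not called (median −0.21). Nop10, a small subunit of the H/ACA particle, had 2633, 1994, 4006 and 4128 counts and rose by 0.74 ± 0.15 (edgeR adjusted p = 0.000114). Fibrillarin (Fbl), the methyltransferase of the C/D particle, had 1197, 1355, 1025 and 971 counts and fell by 0.42 (SE 0.13, edgeR adjusted p = 0.00964), a call that ended without R882H replicate 1 (adjusted p = 0.122) and without R882H replicate 2 (adjusted p = 0.128). Of 12 assembly factors, 1 rose and 1 fell (median 0.06). These were Tgs1, which makes the trimethylguanosine cap (0.48 ± 0.15), and Nufip1, a scaffold of C/D assembly (−0.53 ± 0.18). Both calls ended in DESeq2 (adjusted p = 0.105 and 0.148) and when EV replicate 2 (edgeR adjusted p = 0.0923 and 0.0645) or R882H replicate 1 (0.0946 and 0.214) was left out.

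Among 16 nonsense-mediated decay factors, 4 fell, 1 rose and 11 were not called (median 0.01), beside 19.4% lower and 19.3% higher over all tested genes. Without R882H replicate 1, 1 fell, beside 12.3% of all tested genes. The termination factor genes Gspt1 (−0.60 ± 0.13) and Etf1 (−0.40 ± 0.13) and the decay factors Smg5 (−0.61 ± 0.17) and Smg9 (−0.71 ± 0.21) fell, and the exon junction protein gene Magoh rose (0.37 ± 0.14). The core helicase gene Upf1 was not called. Without R882H replicate 1 the calls of Gspt1 (edgeR adjusted p = 0.0553), Etf1 (0.140), Smg5 (0.120) and Magoh (0.0689) ended. The Etf1 call also ended without R882H replicate 2 (0.169), and Smg9 lost its call without EV replicate 2 (−0.25, edgeR adjusted p = 0.459) and in DESeq2 (0.111). Magoh lost it also in DESeq2 (0.0886) and when EV replicate 2 (0.243) or R882H replicate 2 (0.299) was left out.

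Of 11 genes that act on TOP messages or upstream of them, 5 fell, 1 rose and 5 were not called (median −0.18), beside 19.4% lower and 19.3% higher over all tested genes. The number that fell was 3 in DESeq2 (10.9% of all genes lower), 3 without R882H replicate 1 (12.3%) and 2 without R882H replicate 2 (12.8%). The translation repressor gene Eif4ebp1 went from 136 ± 8.01 CPM to 72.7 ± 1.53 CPM in R882H cells (−0.91 ± 0.13, edgeR adjusted p = 1.12e-06). Larp1, which binds the TOP sequence, went from 602 ± 32.0 CPM to 383 ± 16.9 CPM (−0.65 ± 0.13, edgeR adjusted p = 0.000202). Both were lower in each R882H library than in each EV library, as were 33.9% of all tested genes, which picking called genes favours. The kinase genes Rps6kb1 (−0.55 ± 0.14) and Mtor (−0.42 ± 0.15) fell, and Eif4ebp2 rose (0.50 ± 0.13). Calls ended for Rps6kb1 without R882H replicate 2 (edgeR adjusted p = 0.0906) and for Eif4ebp2 without R882H replicate 1 (0.0923). For Mtor they ended in DESeq2 (0.147) and when EV replicate 2 (0.104), R882H replicate 1 (0.113) or R882H replicate 2 (0.192) was left out.

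**Figure D5:**
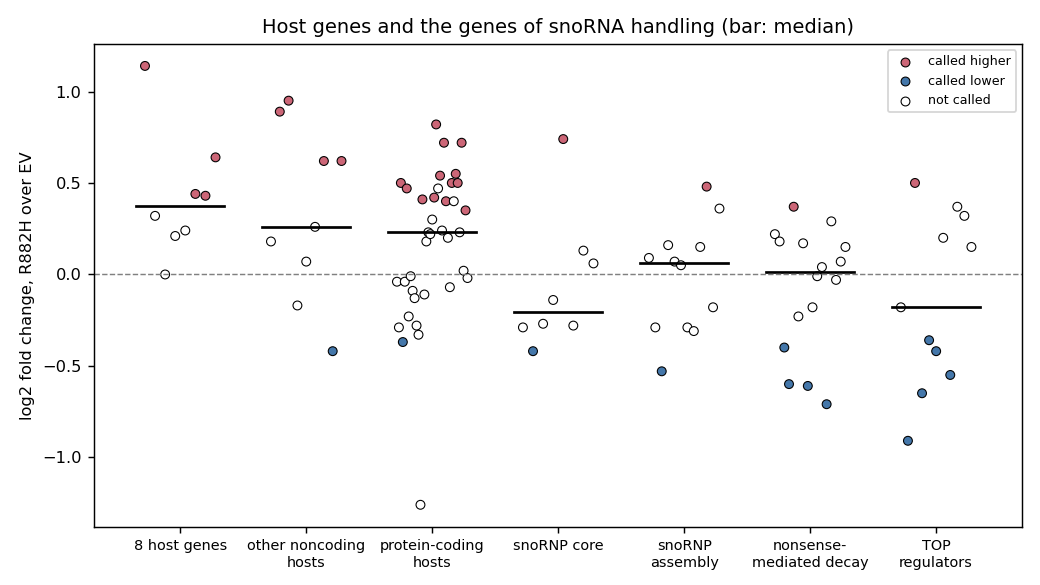
Log2 fold change (R882H over EV, vertical axis) of every tested gene in 7 lists, 1 point per gene, red where called higher, blue where called lower and white where not called, with the median as a bar. The 8 host genes lie between 0.00 and 1.14 with a median of 0.38, and the TOP regulators have a median of −0.18.

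Over the 4 libraries, the pattern of the 8 genes' summed counts was closest to that of Rpl30, a ribosomal protein gene and itself a snoRNA host. Likeness was the Euclidean distance between log2 CPM centred on each gene's own mean, over 3883 other genes that averaged 50 CPM or more, and was 0.0294 for Rpl30, 0.0440 for Ptprcap and 0.0525 for Cenph. Rpl30 had 981 and 815 CPM in EV and 1464 and 1495 CPM in R882H. All 3 genes have the higher EV value in replicate 1, as the hosts do, which picking them by this distance favours. Besides, 4 libraries are few for such a ranking.

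The libraries held between 5470330 and 5921985 counts, and those of a group agreed better (Pearson r of log2 CPM across genes 0.983 and 0.986) than those of different groups (0.876 to 0.884). All 10 myeloid progenitor markers had counts in all libraries. Their sum was 3004 and 2976 CPM in EV and 4561 and 4691 CPM in R882H, with Mpo, Ctsg and Kit called higher, Cebpa and Hoxb8 called lower and the other 5 not called. Markers of other cell types also differed between the groups along with the host genes. The 7 B lineage markers summed to 240 and 225 CPM in EV and 915 and 850 CPM in R882H, with all 6 tested ones called higher, and the 5 mast cell and basophil markers summed to 91.1 and 95.1 CPM in EV and 406 and 417 CPM in R882H, with Mcpt8, Prss34 and Cpa3 called higher and Gata2 called lower. The 4 megakaryocyte markers summed to 1040 and 850 CPM in EV and 26.1 and 21.8 CPM in R882H, and Pf4 made up nearly all of the EV sum (5635 and 4781 counts, against 90 and 60 in R882H). Of the 3 megakaryocyte markers tested, 1 was called lower, 1 was called higher and 1 was not called (log2 fold changes from −6.19 to 1.35). Of 6 genes listed as signs of RNA quality, 2 were called higher and none lower, beside 19.3% higher and 19.4% lower over all tested genes. Their log2 fold changes ran from −0.19 to 1.33, with a median of 0.25. The T cell markers Cd3e, Cd3g and Cd2 and the stromal markers Col1a1, Col1a2, Col3a1 and Dcn were at 0 in all libraries, while Lck of the T cell list was called lower (36 and 47 counts in EV, 7 and 5 in R882H). The 4 Y-linked genes had 2 and 4 counts in EV and 110 and 87 in R882H, and the 2 tested ones were called higher (log2 fold changes 5.4 and 5.49). Xist had 1438 to 1880 counts in all libraries and was not called. The groups thus differ in Y-linked expression as well, and the cause of this was not tested. All these differences run along the same groups as R882H. Their part in the host gene values therefore cannot be told apart from that of R882H, and was not tested. Dnmt3a had 264, 270, 254 and 239 counts (−0.19 ± 0.15, edgeR adjusted p = 0.334), and 3′ tags need not cover a transgene.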

How the data were processed

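RNA of 2 EV and 2 R882H samples was made into QuantSeq 3′ libraries, per the labels' protocols. The authors deposited raw counts per Ensembl gene, 1 column per library. The submitters' processing notes name mm10, HISAT2 2.0.4, Subread 2.0.0 with featureCounts, bcl2fastq 2.17.1.14, cutadapt 1.14, limma 3.48.3 and edgeR 3.34.0. For the annotation, strand setting and multiply matching reads the entry is: not given in the sources used here. Libraries held 5470330 to 5921985 counts.

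Genes were placed with GENCODE M21 (GRCm38, the assembly of mm10), which holds 52489 of the 52636 IDs, and the 147 others held 0.0839% of counts. Snhg16 was matched through an older symbol. The test was edgeR's quasi-likelihood test (edgeR 4.0.16, R 4.3.3) after filterByExpr and TMM, with robust estimation and Benjamini-Hochberg adjustment over 11444 genes. The standard error is the size of the log2 fold change divided by the root of F. The fit was checked on simulated data. Alternatives were DESeq2 1.42.0, other scaling and filters, a replicate block, genes without exon overlap and leaving out each library. Neighbours lie within 5000 bases and have at least 10 counts. Named beside the 8 are the tested neighbours, of which 1 is not reported here, all tested noncoding hosts, up to 4 called genes of each other list in the commoner direction and 2 in the other, and the 3 genes nearest in pattern. Of the 312 wider hosts counts alone are given. Upf1 was added after its values were seen. Members and lists were chosen with earlier results of these data known.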

Additional observations from a re-analysis of the deposited data

How the results depend on the processing

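The 8 host genes gave 4 higher and 0 lower calls under every scaling, filter and tool tried on all genes. Among genes without exon overlap 1 was higher, since Snhg5 alone of the 8 remained to be tested. With each library left out in turn, 2 to 6 were higher, and log2 fold changes ranged from 1.04 to 1.24 for Gas5, 0.44 to 0.85 for Snhg8, 0.36 to 0.54 for Snhg5, 0.30 to 0.56 for Snhg6, 0.13 to 0.53 for Snhg1, 0.05 to 0.45 for Snhg3, 0.13 to 0.31 for Snhg15 and −0.06 to 0.08 for Snhg12. The sign of Snhg12 also turned with no low-count filter (0.0045). The ratio of summed levels was 1.54 to 1.85. Replicate numbers did not pair the libraries (correlation of same-numbered deviations −0.0048); a replicate block left 4 host genes higher and gave 2 assembly factors higher, and it ended the Eef2 call (−0.36). DESeq2 called 1297 genes higher and 1412 lower, 0 assembly factors in either direction, 0 decay factors higher, 3 TOP regulators lower and 1 neighbour higher. Without exon overlap 2 other noncoding hosts were higher and 0 lower, 8 protein-coding hosts higher, 3 TOP regulators lower, 1 neighbour higher and 24 of the wider hosts lower. With library size only, 2 protein-coding hosts were lower.

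With a library left out, all genes gave 1508 to 2065 higher and 1446 to 2168 lower calls, and the other noncoding hosts 0 to 1 lower. Protein-coding hosts gave 4 to 17 higher and 1 to 4 lower, core proteins 1 to 2 higher and 0 to 3 lower, and assembly factors 0 to 2 in each direction. Decay factors gave 0 to 1 higher and 1 to 4 lower, TOP regulators 0 to 2 and 2 to 4, neighbours 0 to 2 and 0 to 1, and the wider hosts 27 to 50 and 25 to 44. The cause of these differences was not tested. With 2 libraries per group, the calls of Snhg5, Snhg6, Snhg1 and Snhg3 changed with single libraries left out.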
